A study of Mus musculus with 12 samples.

Results

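Oxidative phosphorylation genes of both genomes were followed in organotypic brain slice cultures of the mouse. They were chosen by symbol from the deposited expression table (mt-, Nduf, Cox followed by a digit, Atp5, Uqcr and Sdha to Sdhd), and kept where their level averaged 1 CPM or more over 12 libraries, where CPM is a gene's reads scaled to a library of 1000000. Of 21967 listed genes 114 matched the symbols and 107 reached that level, 13 encoded by mitochondrial DNA and 94 by nuclear DNA. The slices were cut at postnatal day 6, kept for 8 days in vitro, and used by the study to ask what the transcription factor gene Mef2c does at rest and after strong network activity. All slices were homozygous for a floxed Mef2c allele. Slices without Cre (Mef2c fl/fl) and slices labelled Cre (CaMKii-α Cre +/-; Mef2c fl/fl) were given either vehicle (DMSO and water, 1% of each) or 4-aminopyridine and picrotoxin, both at 100 µM. The first agent closes potassium channels and the second closes the channels of GABA-A receptors, a combination that drives synchronous firing. The CaMKIIα promoter is active in forebrain excitatory neurons, so other cells of such a slice are not expected to lose Mef2c. Each of the 4 groups held 3 libraries of polyadenylated RNA, numbered 1 to 3, and the labels do not say whether these came from separate animals.

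The respiratory chain moves electrons from NADH (through complex I) and succinate (through complex II) to coenzyme Q, then through complex III and cytochrome c to complex IV, which reduces oxygen. The proton gradient built on the way drives ATP synthase, complex V. Mitochondrial DNA encodes core subunits of complexes I, III, IV and V as long polycistronic transcripts that are cut at the tRNAs, while nuclear DNA encodes the remaining subunits, all of complex II, and the assembly factors. Neurons depend on this pathway to fuel ion pumping and synaptic transmission.

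Library totals ran from 82235674 to 140390406 reads, which made a single read 0.00712 to 0.0122 CPM. In slices without Cre, Mef2c itself stood at 1002 ± 123 CPM (SD, n = 3) with vehicle and 1079.9 ± 129.6 CPM with treatment. In slices labelled Cre it stood higher, at 2267 ± 161 and 2156 ± 188 CPM, which goes against the direction of a deletion. The CPM values are per gene, not of the floxed part, and every direction between genotypes given here follows the labels. In 4 libraries, 1 in each group, 4 Y-linked genes summed to 0.395 to 3.89 CPM, against 90.4 to 119 CPM in the other 8. Markers of neurons and astrocytes were abundant in every library, and the 5 erythroid markers summed to at most 0.164 CPM in any library.

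Several mitochondrial genes have near-identical copies in the nuclear genome, which bear on what their values can mean, and these are shown before the values. Transcripts were taken from GENCODE M21 (GRCm38, the assembly of mm10), and each stretch of 150 bases was searched in all other annotated transcripts. Copies were found for 7 of the 13 genes, all of them unprocessed pseudogenes side by side on the minus strand of chromosome 1, between positions 24611535 and 24616197. None of the 7 copies has a row of its own in the deposited table. For mt-Co3, a core subunit of complex IV, 99.8% of the stretches recur in Gm28437, and 783 aligned bases hold 0 mismatches. The first 80 bases of both are shown because no read lying within them can be told apart; the gene is at chrM:8607-8686 on the plus strand and the copy at chr1:24613892-24613971 on the minus strand (GRCm38, each written 5′ to 3′).
mt-Co3: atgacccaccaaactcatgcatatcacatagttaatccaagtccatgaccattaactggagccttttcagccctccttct
Gm28437: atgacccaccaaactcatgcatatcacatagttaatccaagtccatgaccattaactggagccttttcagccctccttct

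The share of such stretches was 99.4% for mt-Atp6 (ATP synthase), 99.4% for mt-Co2 (complex IV), 98% for mt-Nd4l and 97% for mt-Nd3 (both complex I). It was 59.2% for mt-Nd4 and 23.6% for mt-Co1, where the copy Gm29216 differs at 6 of 492 aligned bases. No stretch of mt-Cytb, mt-Nd1, mt-Nd2, mt-Nd5, mt-Nd6 or mt-Atp8 was found in another annotated transcript. Sequence outside annotated transcripts was not searched. Per kb of transcript the 5 genes above 95% stood at 38.6 to 246 CPM. The 6 highest genes lay far above them, with mt-Co1 at 10985 CPM per kb, mt-Cytb (complex III) at 6299.7, mt-Nd1 at 5346, mt-Nd5 at 2518, mt-Nd2 at 2464 and mt-Nd4 at 2098. Low levels were not limited to the 5 genes above 95%. mt-Nd6, encoded on the other strand from the remaining 12, stood at 33.0 CPM per kb, and mt-Atp8, which overlaps mt-Atp6, at 96.9 CPM per kb. On mitochondrial DNA mt-Atp8 lies between mt-Co2 and mt-Atp6. The copies of these neighbours lie at chr1:24614885-24615565 and chr1:24613974-24614651, and whether the bases between them hold an unannotated copy of mt-Atp8 was not tested. How reads that match more than 1 place were counted is not given in the sources used here, and its part in these levels was not tested. Differences between groups in the 5 genes above 95% are therefore uncertain in what they count. Those in mt-Nd4 and mt-Co1 may be so in part, and those in mt-Atp8 may be.

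**Figure D1:**
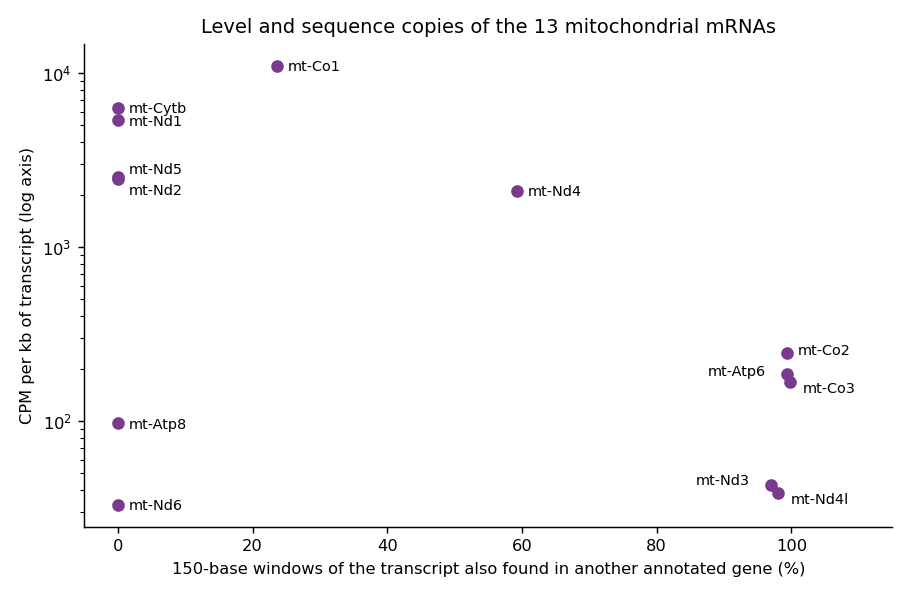
Each point is 1 of the 13 mitochondrially encoded mRNAs, placed by the share of its 150-base stretches that recur in another annotated gene (x axis, %) and by its mean level over 12 libraries in CPM per kb of transcript (y axis, log scale). The 5 genes at the right, from 97% to 99.8%, lie between 38.6 and 246 CPM per kb, and mt-Atp8 and mt-Nd6 are low at 0%.

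Among the nuclear genes the catalytic core of ATP synthase was the most abundant per kb of exon: Atp5b (the catalytic β subunit) stood at 655 CPM per kb and Atp5a1 (the α subunit) at 370.0 CPM per kb. They were followed by the complex IV subunits Cox6a1 at 334 and Cox8a at 296 CPM per kb. Atp5g3, 1 of 3 genes that encode the same mature c subunit of the ATP synthase rotor, stood at 273 CPM per kb. Relative to Atp5g3 in vehicle slices without Cre, the level per kb of Atp5g2 was 26.0% ± 0.531 (SD, n = 3) and that of Atp5g1 12.5% ± 0.727.

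The isoforms known from heart and muscle were low in these slices. Cox6a2 was 1.79% ± 0.164 of Cox6a1 per kb, Cox7a1 was 1.14% ± 0.191 of Cox7a2, and Cox8b was 0.0491% ± 0.0141 of Cox8a (vehicle, no Cre, SD, n = 3). The value of Cox8b rests on few reads, with a mean of 0.0395 CPM where 3 reads make 0.0214 to 0.0365 CPM. Cox7a2l, the relative of Cox7a2 that joins complexes into supercomplexes, was expressed at 67.1% ± 3.12 of it. Ndufa4l2, the relative of the complex IV subunit Ndufa4, was at 5.87% ± 0.969 of it and ranged from 2.18% to 9.63% among the treated libraries labelled Cre. The minimum of 1 CPM kept Cox4i2 (mean 1.18 CPM) and Cox6b2 (1.18 CPM), and left out Cox7a1 (0.572 CPM), Cox7b2 (0.126 CPM) and Cox8b (0.0395 CPM). Cox4i1, Cox16, Cox8c and Ndufa13 are listed at 0 in all 12 libraries, as is Tubb3, a tubulin of all neurons. Cox4i1 and Ndufa13 encode subunits that other tissues use throughout, so nothing is drawn from these zeros, and Cox4i2 could not be set against Cox4i1.

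The mitochondrial mRNAs varied more between libraries than the nuclear genes of at least 10 CPM did. Their coefficient of variation over the 12 libraries ranged from 17.97% (mt-Co1) to 42.2% (mt-Co2), with a median of 26.8%. For the 85 nuclear members of at least 10 CPM the median was 7.07% and the highest 14.2%, beside a median of 10.7% for 9382 tested genes at that level. Sdha, the flavoprotein of complex II, was the steadiest member, with a coefficient of variation of 3.15%.

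In vehicle slices without Cre the 13 mRNAs took 4.66%, 3.98% and 5.31% of counted reads. With treatment these slices gave 3.19%, 3.48% and 5.44%, so that replicate 3 stood apart from replicates 1 and 2 and above every vehicle library. Slices labelled Cre gave 4.13%, 3.07% and 3.78% with vehicle and 3.03%, 3.84% and 3.88% with treatment. Between vehicle and treated slices, and between genotypes within each treatment, the ranges overlapped. The 94 nuclear genes took 0.988% ± 0.0455, 0.979% ± 0.0322, 0.945% ± 0.0438 and 0.974% ± 0.0304 of reads in the same order of groups (SD, n = 3), also overlapping. In such bulk libraries fewer cells of a type and less RNA per cell cannot be told apart.

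**Figure D2:**
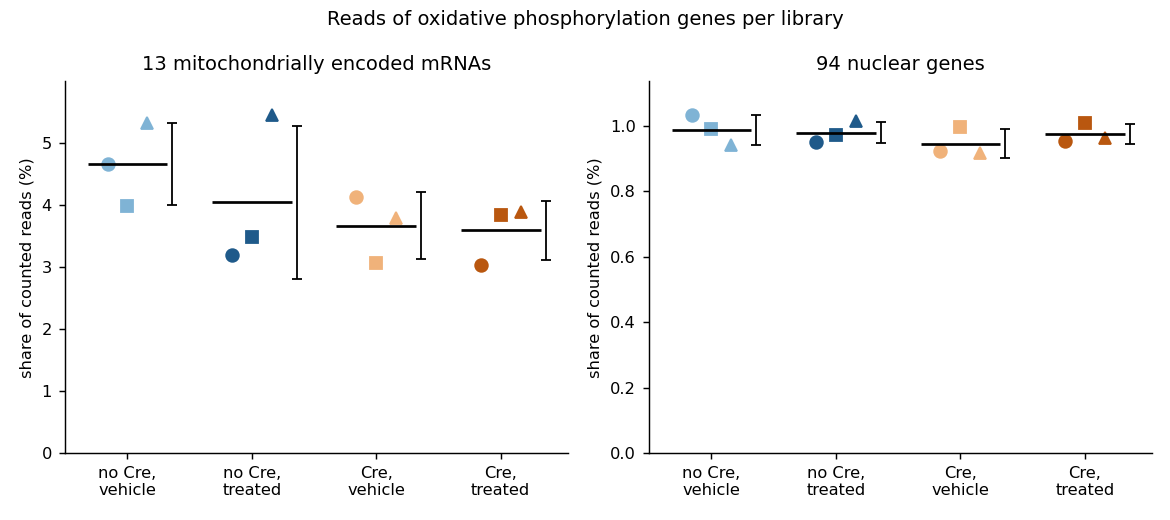
Share of counted reads (y axes, %) taken by the 13 mitochondrially encoded mRNAs (left) and the 94 nuclear genes (right) in each library, by group. Circles, squares and triangles are replicates 1, 2 and 3, horizontal lines are group means and bars beside them are SD (n = 3). On the left treated replicate 3 without Cre, at 5.44%, is far from replicates 1 and 2 at 3.19% and 3.48%.

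The mitochondrial mRNAs moved as a block in some libraries and were split in others. In vehicle replicates 1 and 3 and treated replicate 3 labelled Cre, 7, 7 and 6 of 13 lay above their own mean. In vehicle replicates 1 and 2 without Cre 11 and 11 did, and in treated replicate 2 of either genotype 2 did. In replicate 3 without Cre, vehicle and treated alike, 13 of 13 lay above their own mean over the 12 libraries. In treated replicate 1 without Cre, in vehicle replicate 2 labelled Cre and in treated replicate 1 labelled Cre, 0 of 13 did. In these 3 libraries 27, 68 and 49 of the 94 nuclear genes lay above their mean, and in replicate 3 without Cre 32 (vehicle) and 73 (treated) did, so that the nuclear genes went with the mitochondrial ones in some libraries and not in others.

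**Figure D3:**
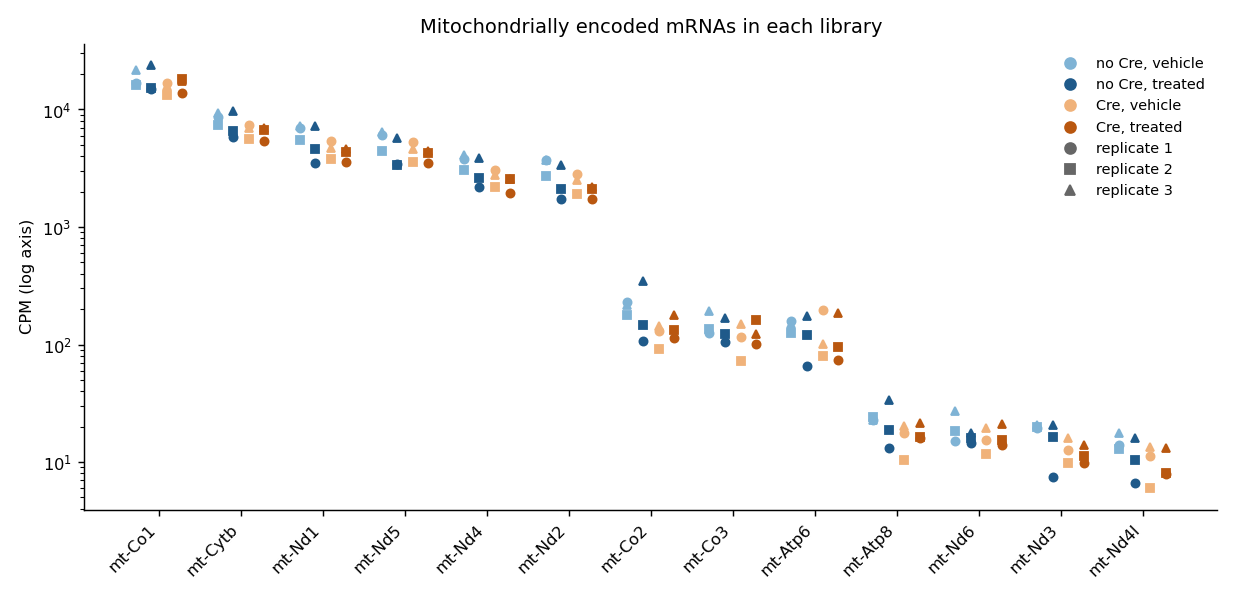
CPM of each mitochondrially encoded mRNA (x axis) in every library (y axis, log scale), with colours for the 4 groups and marker shapes for replicates 1 to 3. The means span from 11.5 CPM (mt-Nd4l) to 16972 CPM (mt-Co1), and the triangles (replicate 3) of both groups without Cre lie above the gene's mean for 13 of 13 genes.

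In slices without Cre, 2 assembly factors fell when network activity was driven and 0 structural subunits of any complex passed the test. In vehicle slices Ndufaf4, a factor that builds complex I (chr4:24898083-24905001, plus strand, GRCm38), stood at 17.5, 18.3 and 16.6 CPM. In treated slices it stood at 14.5, 14.6 and 13.05 CPM, below every vehicle library. It fell by 0.30 in log2(CPM + 1) (SE 0.0840, limma, adjusted p = 0.0362). Cox10, the farnesyltransferase in the synthesis of heme A for complex IV (chr11:63962627-64079468, minus strand), stood at 31.9, 32.97 and 31.8 CPM in vehicle slices. After treatment it stood at 24.9, 28.2 and 29.4 CPM, again with no overlap. Cox10 fell by 0.22 (SE 0.0656, adjusted p = 0.0435).

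These 2 calls among 107 genes stand beside a background of 12.6% of 13048 tested genes called in either direction and 9.34% called lower. Of all calls 25.8% were higher, and 48.7% were under median-ratio scaling. The libraries of both groups did not overlap for 8 of the 107, beside 33.0% of tested genes. By 95% interval, the nuclear genes were measured to within 0.170 log2 units on either side of the estimate (median), and the median difference of the 94 was -0.041, beside -0.061 for all tested genes. The sign of that small median was not stable, at 0.026 under median-ratio scaling and 0.0086 under edgeR with TMM. By role, nuclear complex I (35 genes) had a median of -0.054, complex II (4) -0.045, complex III (8) 0.0015, complex IV (13) 0.028, complex V (15) -0.042 and assembly or other factors (19) -0.037, and none of the 75 structural subunits passed. Neither call held throughout: 0 members passed in 7 of the 12 fits that each left out 1 library. These were each of the 3 vehicle libraries without Cre, treated replicates 1 and 2 without Cre, vehicle replicate 1 labelled Cre and treated replicate 3 labelled Cre. Neither gene passed with replicate numbers as a block within genotype, where 0 of 107 were called. edgeR with TMM on recovered reads called Ndufaf4 and not Cox10, and DESeq2 called Ndufaf4 with 2 others, Cox14 and the complex I core subunit gene Ndufs1.

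All 13 mitochondrial mRNAs had negative estimates in the same comparison, with a median of -0.36, and 0 of 13 passed limma (2 at an unadjusted p under 0.05). DESeq2 and edgeR on recovered reads also called 0. The lowest adjusted p belonged to mt-Nd2, a core membrane subunit of complex I. It stood at 3731, 2733 and 3746 CPM with vehicle and 1728, 2097 and 3380.1 CPM with treatment, a difference of -0.55 (95% interval -1.03 to -0.063, adjusted p = 0.137). Treated replicates 1 and 2 lay below all vehicle libraries and replicate 3 lay among them. For mt-Nd5 the difference was -0.46 (adjusted p = 0.180), and the structural subunit Atp5o, of the peripheral stalk of ATP synthase, differed by -0.19 (adjusted p = 0.181). The 7 complex I mRNAs had a median of -0.46 and the 3 of complex IV one of -0.20, with mt-Co1, the catalytic subunit, closest to 0 at -0.040.

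Without treated replicate 3 the median of the 13 was -0.68, and 4 complex I mRNAs passed: mt-Nd2 at -0.82 (adjusted p = 0.0119), mt-Nd5 at -0.71 (0.0224), mt-Nd1 at -0.70 (0.0227) and mt-Nd4 at -0.61 (0.0365), with Cox10 as the fifth member called. That fit called 1710 of 13048 tested genes. Of the 150-base stretches of mt-Nd4 59.2% recur in its annotated copy. Without other libraries the median reached as high as -0.12. The intervals of the mitochondrial genes extended 0.484 log2 units to either side of the estimate (median), so that a difference of the size of their median was not detectable with these libraries.

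**Figure D4:**
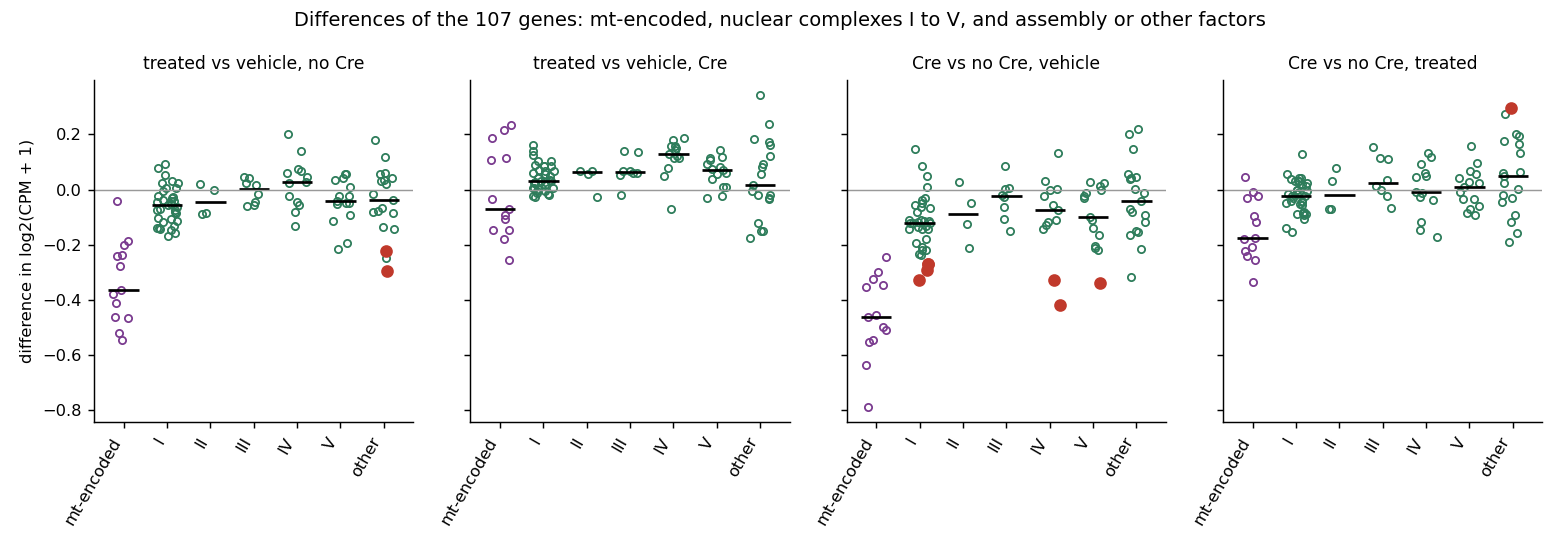
Difference in log2(CPM + 1) (y axis) of each of the 107 genes in the 4 comparisons (panels), grouped on the x axis as mt-encoded, nuclear subunits of complexes I to V, and assembly or other factors. Filled red points passed limma at an adjusted p under 0.05 (2, 0, 7 and 1 genes from left to right), open points did not, and horizontal lines are group medians, at -0.36, -0.070, -0.46 and -0.18 for the mt-encoded genes.

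In slices labelled Cre, 0 of 107 genes passed after the same treatment (limma, 6 at an unadjusted p under 0.05), beside 14.1% of tested genes called and 10.3% called lower. Of all calls 27% were higher, and 38.1% were under median-ratio scaling. Libraries did not overlap for 12 of the 107, beside 29.4% of tested genes. The smallest p belonged to Cox18, which helps insert the mitochondrially made subunit COX2 into the inner membrane. It stood at 10.04, 10.3 and 10.6 CPM with vehicle and 13.3, 11.3 and 12.4 CPM with treatment, a difference of 0.24 (SE 0.0802, adjusted p = 0.0732). All 3 treated libraries lay above all 3 vehicle libraries. Cox10 differed by -0.18 (adjusted p = 0.102), with libraries at 32.4, 31.9 and 32.5 CPM against 27.4, 29.5 and 28.4 CPM. The next were the complex I subunit Ndufa7 at 0.16 (adjusted p = 0.131), the complex I assembly factor Ndufaf5 at 0.18 (0.145) and the ATP synthase subunit g gene Atp5l at 0.14 (0.187).

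Of the 94 nuclear genes 73 had positive estimates, with a median of 0.060, beside -0.028 for all tested genes. The tools that rescale libraries called more of them, all higher: Cox18 and Ndufa7 under median-ratio scaling, these with Ndufaf5 under edgeR with TMM, and these 3 with Cox6b1 and Cox7b under DESeq2. Leaving out vehicle replicate 2 labelled Cre gave 3 calls (Cox14, Cox6a1 and Cox7a2), treated replicate 2 labelled Cre gave 1 (Cox18), and treated replicate 1 without Cre gave 1 (Cox10). The 13 mitochondrial mRNAs had a median of -0.070 and mixed signs, 5 positive and 8 negative, and the lowest adjusted p among them was 0.542. The 3 of complex IV were all positive and 6 of the 7 of complex I negative: mt-Co2 differed by 0.22 and mt-Co3 by 0.24, while mt-Nd2 differed by -0.26. Leaving out 1 library moved the median between -0.27 and 0.078.

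Comparing genotypes at rest, 7 nuclear genes were lower in vehicle slices labelled Cre than in those without Cre, and 0 were higher. The lowest adjusted p belonged to Cox4i2, the second isoform of complex IV subunit 4, best known from lung (chr2:152754173-152765037, plus strand). It stood at 1.39, 1.37 and 1.78 CPM without Cre and at 0.879, 0.753 and 0.997 CPM in slices labelled Cre, where every library was lower. The ratio of mean CPM was 0.579, and the difference in log2(CPM + 1), which understates changes at so low a level, was -0.42 (SE 0.0918, adjusted p = 0.00867). This call held under each of the 24 alternatives that could test it. Cox6b2, an isoform of subunit 6b known from testis (chr7:4751792-4753094, minus strand), stood at 1.58, 1.29 and 1.26 CPM against 0.788, 1.11 and 0.784 CPM, a difference of -0.33 (SE 0.106, adjusted p = 0.0479). Per kb it made up 0.804% ± 0.0574 of Cox6b1 without Cre and 0.544% ± 0.0995 in slices labelled Cre (SD, n = 3).

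Of complex I, 4 accessory subunits were lower as well. Ndufv3, beside the NADH-binding flavoprotein (chr17:31520115-31531331, plus strand), stood at 74.7, 71.1 and 65.3 CPM without Cre and 58.2, 59.5 and 56.7 CPM in slices labelled Cre (-0.27, SE 0.0676, adjusted p = 0.0173). Ndufs6, a zinc-binding subunit of the same module (chr13:73319838-73328542, minus strand), stood at 56.01, 54.9 and 51.6 CPM against 43.8, 47.2 and 41.4 CPM (-0.29, SE 0.0773, adjusted p = 0.0222). No library of either group crossed into the range of the other for these genes. Ndufa3, an accessory subunit of the membrane arm (chr7:3617373-3620327, plus strand), stood at 64.02, 58.6 and 55.4 CPM against 47.9, 49.1 and 50.2 CPM (-0.27, adjusted p = 0.0243). Ndufa2, an accessory subunit on the matrix side (chr18:36742332-36744557, minus strand), stood at 65.5, 57.02 and 56.2 CPM against 46.00, 48.2 and 47.4 CPM (-0.33, adjusted p = 0.0341). Of ATP synthase, Atp5k (subunit e, at the interface of its dimers, chr5:108433244-108434448, minus strand) was the called member, at 56.4, 55.2 and 49.1 CPM against 40.9, 42.7 and 42.6 CPM (-0.34, adjusted p = 0.0374). Here too all libraries labelled Cre lay below all libraries without Cre.

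The 7 calls, all lower, compare with 19.3% of tested genes called in either direction and 10.1% called lower. Libraries did not overlap for 31 of the 107 genes, beside 51.3% of tested genes. Unadjusted p (limma) was under 0.05 for 26 of the 107 members, 24 of them lower, beside 4562 of 13048 tested genes, 2391 of them lower. Of the 35 nuclear complex I genes 31 had negative estimates (median -0.12), and of the 15 complex V genes 12 (median -0.098), while the median of the 8 complex III genes was -0.023. Complex II did not pass: Sdhc, its membrane anchor, was closest, at 110.1, 98.6 and 102 CPM against 89.4, 90.5 and 87.5 CPM (-0.21, adjusted p = 0.0515). The other anchor Sdhd differed by 0.027, the iron-sulfur subunit Sdhb by -0.13 and Sdha by -0.048 (adjusted p = 0.774, 0.245 and 0.525). The complex I core subunit Ndufs1 had a positive estimate, 0.15 (adjusted p = 0.0666).

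The number of calls depended on which libraries set the spread. It was 27 (24 lower) with the 6 vehicle libraries alone, and all 7 genes were among them. It was 16 without treated replicate 3 without Cre and 13 without treated replicate 1 without Cre. Calls among all 13048 tested genes rose too, from 2518 in the main fit to 4982, 3043 and 2886 in the same order. It was 1, Cox4i2, without vehicle replicate 1 or 2 without Cre or vehicle replicate 3 labelled Cre, and 2 (Cox4i2 and Ndufv3) without vehicle replicate 1 labelled Cre. Here the calls among all tested genes were 1173, 1932, 1358 and 1798 in the same order. Median-ratio scaling left 4 (Cox4i2, Ndufa3, Ndufs6 and Ndufv3).

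The 13 mitochondrial mRNAs all had negative estimates between these groups, with a median of -0.46, and 0 of 13 passed limma. At an unadjusted p under 0.05 there were 5 of 13, beside 4562 of 13048 tested genes. edgeR and DESeq2 on recovered reads called 0 of the 13. For 4 of them the groups did not overlap, beside 51.3% of tested genes. mt-Co2 stood at 228, 179 and 219 CPM without Cre and 129.6, 91.9 and 145 CPM in slices labelled Cre, a difference of -0.79 (95% interval -1.53 to -0.050, adjusted p = 0.120). mt-Nd1 stood at 6931, 5505 and 7236 CPM against 5362, 3766 and 4742 CPM (-0.51, adjusted p = 0.125). mt-Nd3 stood at 19.7, 19.8 and 20.7 CPM against 12.6, 9.84 and 15.9 CPM (-0.64, adjusted p = 0.124). In each of these the libraries labelled Cre were the lower ones. mt-Atp8 stood at 22.8, 24.2 and 22.7 CPM against 17.6, 10.3 and 20.3 CPM (-0.55, adjusted p = 0.186). mt-Co2 and mt-Nd3 are among the genes with near-identical annotated copies, and an unannotated copy of mt-Atp8 was not searched for. The order of size otherwise ran from mt-Nd4l at -0.55, mt-Nd2 at -0.50, mt-Co3 at -0.46 and mt-Nd4 at -0.46 to mt-Cytb at -0.35, mt-Nd6 at -0.35, mt-Nd5 at -0.33, mt-Atp6 at -0.30 and mt-Co1 at -0.24.

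With the 6 vehicle libraries alone 5 of the 13 passed: mt-Nd3 (adjusted p = 0.00967), mt-Co2 (0.0299), mt-Nd1 (0.0312), mt-Cytb (0.0445) and mt-Nd4 (0.0459). Their differences are the same as above, and only the estimate of the spread changed, which then leaves out the treated libraries. That fit called 4982 of 13048 tested genes. Without treated replicate 3 without Cre, mt-Co2 (0.0154), mt-Nd1 (0.0365), mt-Nd2 (0.0452) and mt-Nd4 (0.0493) passed, and without treated replicate 1 without Cre mt-Nd3 did (0.0161). These fits called 3043 and 2886 of 13048 tested genes, in that order. As with mt-Co2 and mt-Nd3, mt-Nd4 has an annotated copy, in which 59.2% of its 150-base stretches recur. Leaving out 1 library moved the median of the 13 between -0.62 and -0.23.

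Markers of cell types moved between the same groups. Of 13048 tested genes 1198 were called higher and 1320 lower in vehicle slices labelled Cre. Of 6 excitatory neuron markers 4 were called higher there. Summed levels of the 6 overlapped, at 4947 to 5627 CPM against 4706 to 5097 CPM without Cre. Most of each sum was Slc17a7 and Camk2a, with means of 1839 and 3133 CPM in slices labelled Cre and 1832 and 2844 CPM without Cre. Of 6 astrocyte markers 2 were lower (Gfap and Aldh1l1), and estimates were negative for 3 and positive for 3, from -0.53 to 0.52. Their summed levels were 10658 to 11963 CPM against 13314 to 15101 CPM. Most of each sum was Gfap, with means of 8162 CPM in slices labelled Cre and 10676 CPM without Cre. Of 6 microglial markers 2 were lower, at 167 to 217 CPM against 224 to 273 CPM, and of 4 tested oligodendrocyte markers 1 was lower, at 48.4 to 52.9 CPM against 53.5 to 58.6 CPM. Of 6 endothelial and mural markers 0 passed, at 65.1 to 80.5 CPM against 76.4 to 93.6 CPM. Of 5 tested pan-neuronal markers 3 were higher and 1 lower. Of 6 inhibitory neuron markers 2 were called higher and 0 lower, with 4 estimates positive and 2 negative, from -0.62 to 0.83. The part of these markers in the differences of the 107 genes was not tested.

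Between treated slices of both genotypes 1 gene passed, Ndufaf4, which was higher in slices labelled Cre. It stood at 19.7, 16.1 and 16.7 CPM there, above all libraries without Cre (14.5, 14.6 and 13.05 CPM), a difference of 0.30 (SE 0.0840, adjusted p = 0.0356). This comparison shares the treated libraries without Cre with the one in which Ndufaf4 fell. The background was 13.5% of tested genes called, 7.50% higher, and libraries did not overlap for 9 of 107 members beside 25.5% of tested genes. Leaving out 1 library gave 0 to 2 calls. Ndufaf4 did not pass when treated replicate 2 or 3 without Cre, treated replicate 1 or 3 labelled Cre, vehicle replicate 1 without Cre or vehicle replicate 1 labelled Cre was left out. Without treated replicate 1 without Cre mt-Nd3 also passed (-0.63, adjusted p = 0.0329), and without treated replicate 2 labelled Cre Cox11 did. With only the 6 treated libraries 0 passed. The next in p were Ndufaf5 at 0.18 (adjusted p = 0.149), the c subunit gene Atp5g1 at 0.16 (0.158), the acyl carrier subunit of complex I Ndufab1 at 0.13 (0.180) and the copper chaperone Cox19 at 0.20 (0.186). The 7 genes that were lower at rest had differences from -0.17 (Cox4i2) to -0.009 (Atp5k) here, with adjusted p from 0.250 for Cox4i2 to 0.965 for Atp5k. The 13 mitochondrial mRNAs had a median of -0.18 with 0 called, and leaving out 1 library moved it between -0.41 and 0.13.

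The interaction asks whether treatment acted differently in slices labelled Cre, and 0 of 107 genes passed it by limma, edgeR or DESeq2 (2 at an unadjusted p under 0.05 by limma), beside 0.0230% of tested genes. The lowest unadjusted p belonged to Atp5k, at 0.33 (95% interval 0.015 to 0.64), and Ndufa3, at 0.23 (0.003 to 0.45), both with an adjusted p of 0.988. Atp5g2 at 0.16, Cox6b1 at 0.19 and Cox4i2 at 0.25 followed, with the same adjusted p. For Ndufaf4 it was 0.15 (-0.11 to 0.41) and for Cox10 0.046 (-0.16 to 0.25), so that a different response to treatment was not shown for either. Of the 94 nuclear genes 83 had positive estimates (median 0.097), beside a median of 0.019 for all tested genes. The estimates of the 13 mitochondrial mRNAs were all positive (median 0.32), with intervals that extended 0.685 to either side (median).

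Nuclear respiratory genes are known targets of the factors NRF1, GABPA, YY1 and ERRα, so their promoters were searched for these motifs. RefSeq promoters (GRCm38.p6, 250 bases before to 50 after the start) were on hand for 78 of the 94 nuclear genes. Every motif was searched on both strands. The NRF1 motif (GCGCA, any base, then GCGC) was in 24.4% of these promoters, beside 11.1% of 9854 tested genes with a promoter and 5.2% of all 27025. GABPA (CCGGAAG) was in 26.9% beside 18.7% and 9.9%, YY1 (AANATGGCG) in 15.4% beside 5.7% and 2.8%, and ERRα (TCAAGGTCA) in 2.6% beside 0.3% and 0.5%. The activity-linked motifs CRE (TGACGTCA) and AP-1 (TGANTCA) were in 5.1% and 7.7%, beside 3.7% and 6.1% of tested genes and 2.0% and 9.0% of all. SP1 (GGGCGG) was less frequent in the members, 46.2% beside 70.1% of tested genes and 38.2% of all, and the MEF2 motif was in 0 of 78 beside 2.0% and 3.7%. These shares are descriptions with no test, and a missing motif speaks only of this window. The 120 bases before the starts of Ndufaf4 and Cox10, the members that fell with treatment, are shown with the NRF1 motif of Ndufaf4 and the GABPA motif of Cox10 in capitals (5′ to 3′ on the strand of the gene, chr4:24897963-24898082 plus and chr11:64079473-64079592 minus).
Ndufaf4: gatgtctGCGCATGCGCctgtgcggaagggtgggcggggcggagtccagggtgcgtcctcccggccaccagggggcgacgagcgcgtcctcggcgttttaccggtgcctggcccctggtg
Cox10: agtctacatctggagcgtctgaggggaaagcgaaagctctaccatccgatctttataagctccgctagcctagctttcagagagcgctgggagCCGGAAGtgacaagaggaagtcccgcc

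Promoters of 5 of the 7 members lower at rest were searched (Atp5k, Cox6b2, Ndufa3, Ndufs6 and Ndufv3), and NRF1 motifs were found in those of Atp5k and Ndufs6. The NRF1 motif of Ndufaf4 is its own reverse complement, as the CRE motif always is, and was found on both strands at the same place.

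Genes that copy and transcribe mitochondrial DNA were among those that fell with treatment in both genotypes. Of 17 tested genes of this list 6 fell in slices without Cre and 5 in slices labelled Cre, beside 9.34% and 10.3% of tested genes called lower, and 0 rose. The 5 were among the 6: Polrmt, Twnk, Tfam, Tefm and Mterf2. The 2 treatment comparisons share no library. Polrmt, the mitochondrial RNA polymerase, stood at 26.4, 26.8 and 25.5 CPM with vehicle and 17.5, 19.9 and 18.3 CPM with treatment in slices without Cre. In slices labelled Cre it stood at 25.7, 28.4 and 27.2 and 19.00, 19.4 and 19.4 CPM. It fell by 0.48 (SE 0.0637, adjusted p = 2.70e-04) and by 0.47 (SE 0.0637, adjusted p = 3.09e-04), with no overlap in either.

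Tfam, which packs mitochondrial DNA and starts its transcription, went from 20.4, 21.97 and 20.4 CPM to 16.3, 14.8 and 15.6 CPM without Cre and from 23.3, 23.1 and 22.05 CPM to 17.97, 13.8 and 16.2 CPM in slices labelled Cre. The differences were -0.40 (adjusted p = 0.00729) and -0.49 (0.00171). Twnk, the replicative helicase, fell by 0.39 (0.00196) and 0.44 (7.86e-04). Its levels were 14.5, 15.8 and 14.7 CPM against 12.1, 10.9 and 10.6 CPM without Cre. Tefm, the elongation factor of the polymerase, fell by 0.38 (0.00498) and 0.36 (0.00647), and Mterf2, of the termination factor family, by 0.43 (0.0102) and 0.52 (0.00279). Mterf4, which acts on the mitochondrial ribosome, fell by 0.45 (0.00280) without Cre and differed by -0.23 (0.0912) in slices labelled Cre, where the interaction had an adjusted p of 0.988. These calls of the 6 genes without Cre and the 5 with Cre held under every alternative that tested them. The list median was -0.13 and -0.082, beside -0.061 and -0.028 for all tested genes.

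**Figure D5:**
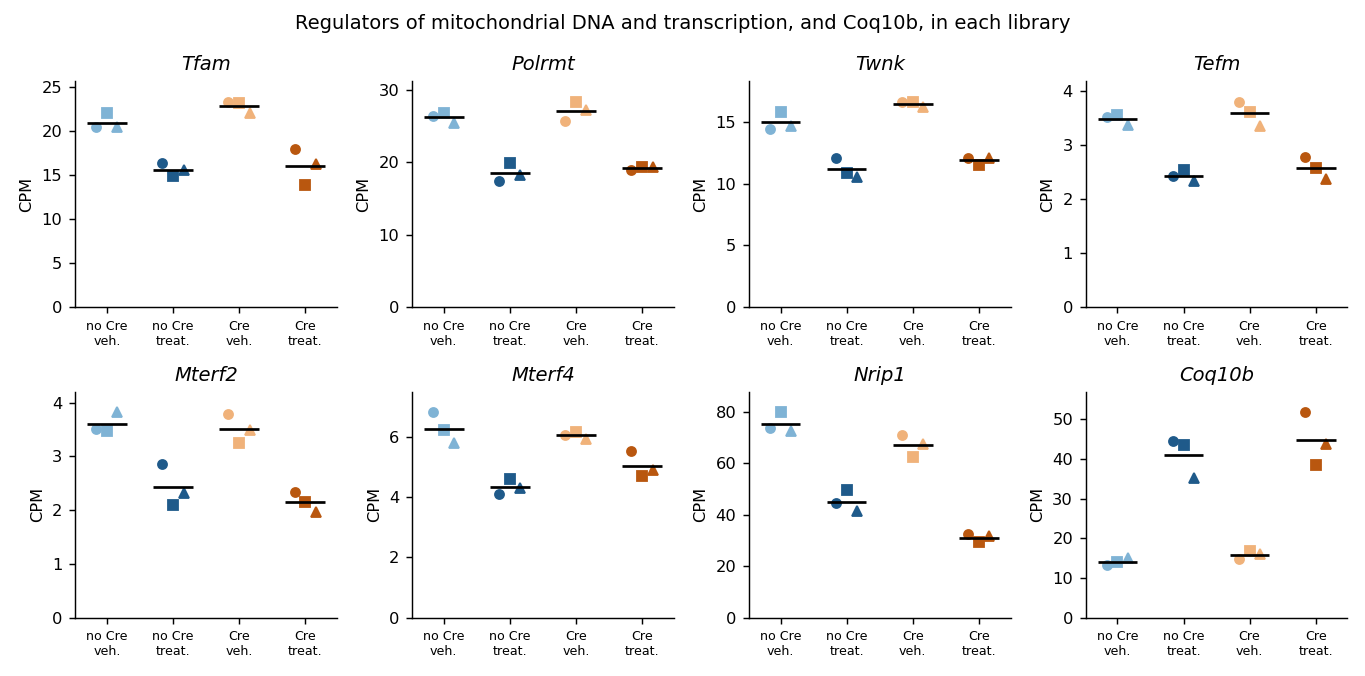
CPM (y axes, from 0) of 6 genes of mitochondrial DNA maintenance and transcription, of the corepressor gene Nrip1 and of Coq10b in each library; colours are groups, circles, squares and triangles are replicates 1 to 3, and lines are group means. In both genotypes the treated libraries of Polrmt, Twnk, Tfam, Tefm, Mterf2, Mterf4 and Nrip1 lie below the vehicle libraries and those of Coq10b lie above them.

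The largest treatment change among the called genes of all 8 lists was a rise of Coq10b, whose product binds coenzyme Q in the inner membrane. It stood at 13.2, 14.04 and 15.00 CPM with vehicle and 44.4, 43.4 and 35.1 CPM with treatment in slices without Cre. In slices labelled Cre it stood at 14.8, 16.9 and 15.9 and 51.7, 38.6 and 43.7 CPM. The rises were 1.47 (SE 0.111, adjusted p = 2.64e-06) and 1.43 (SE 0.111, adjusted p = 3.16e-06), and none of the other 15 tested genes for electron carriers and coenzyme Q synthesis passed in either genotype.

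Of 14 tested regulators of mitochondrial biogenesis, 3 fell in slices without Cre and 2 in slices labelled Cre, with none higher. Of all tested genes 9.34% and 10.3% were called lower in these comparisons. Nrip1, a corepressor known to restrain oxidative genes in muscle and fat, went from 73.7, 79.9 and 72.5 CPM to 44.4, 49.7 and 41.4 CPM and from 71.2, 62.6 and 67.5 CPM to 32.4, 29.3 and 31.8 CPM. It fell by 0.73 (adjusted p = 4.78e-05) and 1.08 (1.57e-06), and the interaction, at -0.35, did not pass (0.934). Yy1 fell by 0.21 (0.0170) and 0.21 (0.0161), and the deacetylase gene Sirt1 fell by 0.57 (0.0132) without Cre. Of 26 alternatives 5 and 4 lost the calls of Yy1 and 3 that of Sirt1. Ppargc1a, the coactivator best known for driving biogenesis, stood at 38.2 ± 1.47 and 36.7 ± 5.25 CPM without Cre and 43.8 ± 1.47 and 42.2 ± 5.42 CPM in slices labelled Cre (vehicle and treated, SD, n = 3), and passed in none of the comparisons.

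The lists of RNA processing and of assembly factors stood near or below the background. Of 19 tested genes for mitochondrial RNA processing 2 fell without Cre and 2 in slices labelled Cre, and of 32 tested assembly factors outside the symbol rule 2 and 2, beside 9.34% and 10.3% of all tested genes. Of the first list these were, without Cre, Fastkd3 (-0.53, adjusted p = 0.00739) and Trmt10c, part of the RNase P that frees tRNAs from the transcript (-0.45, 0.00662). They were, in slices labelled Cre, Ptcd1 (-0.36, 0.00435) and Fastkd1 (-0.31, 0.00710). Of the second, the copper chaperone Sco2 (-0.50, 0.0102) and the insertase Oxa1l (-0.22, 0.0339) fell without Cre, and Coa7 (-0.35, 0.00515) and Sco1 (-0.40, 0.0229) fell in slices labelled Cre. The call of Oxa1l was lost in 14 of 26 alternatives (adjusted p up to 0.227), that of Sco1 in 5 and that of Sco2 in 1. No gene of either list passed the interaction. With treatment, microglial markers fell too, 2 of 6 without Cre (summed 167 to 190.0 CPM against 224 to 273 CPM) and 1 of 6 in slices labelled Cre. All 6 had negative estimates in both genotypes. Of 6 endothelial and mural markers 2 were called lower without Cre, where all 6 estimates were negative. In slices labelled Cre 1 was, with 3 estimates negative and 3 positive, from -0.66 to 0.22. Their sums overlapped there, at 61.6 to 72.6 CPM with treatment and 65.1 to 80.5 CPM with vehicle. The part of these markers in the differences above was not tested.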

How the data were processed

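Polyadenylated RNA was sequenced as paired reads of 150 bases, per the labels. The deposited table holds CPM made by the authors, and each column sums to 1000000. Per the submitters' processing notes FastQC, Trimmomatic, STAR, DESeq2 and mm10 were used. No source used here gives their versions, the tool that counted, its annotation or its strand setting, so genes that overlap on opposite strands may share reads. Every value is a whole multiple of 1 read within 0.001, and reads recovered this way served alternatives only, with edgeR 4.0.16 and DESeq2 1.42.0. Intervals cover the spread between libraries.

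The 13048 genes whose mean reached 1 CPM were tested on log2(CPM + 1) with limma 3.58.1 (R 4.3.3, intensity trend and robust moderation, means model over 4 groups and 12 libraries, two-sided, Benjamini-Hochberg over all tested genes, threshold 0.05), after the script was tested on simulated data. Differences are treated minus vehicle or labelled Cre minus without Cre. The members, lists and tests were chosen with earlier results of these data known. Named were the mitochondrial mRNAs, complex II, isoform pairs, up to 4 passing members per role and direction, the 5 smallest p where fewer than 5 passed, and up to 3 passing genes per list and direction; mt-Co1 to mt-Co3, Ppargc1a, Mterf4, Ndufs1, Atp5b and further values given to complete a comparison were chosen after their values were seen. Levels per kb use the exons of protein-coding transcripts in GENCODE M21. Same-numbered libraries deviated from their group means with correlations from -0.38 to 0.48. All 3 exceeded 0.1 (0.17, 0.14 and 0.48) between vehicle and treated libraries labelled Cre, where numbers may mark pairs, and a block within genotype was added. Alternatives were pseudocounts of 0.1 and 5, no filter or 5 CPM, median-ratio scaling, mitochondrial genes removed, 6 libraries, a replicate block, no trend, edgeR, DESeq2, a covariate for low Y-linked values (added later) and leaving out each library.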

Additional observations from a re-analysis of the deposited data

How the results depend on the processing

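Counts are of the 107 genes called. With slices without Cre, treated against vehicle, 2 genes passed, and 1 did with no filter, median-ratio scaling, only the 6 libraries compared, edgeR (with TMM or with DESeq2's size factors) or a covariate for low Y-linked values. In slices labelled Cre 0 passed, and 2 did under median-ratio scaling, 3 under edgeR with TMM, 2 under edgeR given DESeq2's size factors, and 5 under DESeq2. Between genotypes with vehicle 7 passed, and 4 did with no filter, 4 under median-ratio scaling and 27 with only the 6 libraries compared. That last fit called 4982 of 13048 tested genes. Between treated genotypes 1 passed, and 0 did with only the 6 libraries compared. Leaving out 1 library gave 0 to 5, 0 to 3, 1 to 16 and 0 to 2 in these comparisons, and 0 to 0 for the interaction, which gave 0 under every alternative run. The pairing of libraries by number was not taken from the labels. The replicate block over all numbers gave 2, 0, 6 and 1 calls and 0 for the interaction, so it moved no count by over 1.5 times, while a replicate block within genotype, added after the data were seen, gave 0 calls in both treatment comparisons and 0 for the interaction. Of 680 values of single members under alternatives 75 lost the threshold, 14 passed it newly and 0 changed sign. The cause of these changes was not tested. Counting error is small at these depths, and the spread between 3 libraries sets what can be detected.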

Other observations

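Between genotypes, 3 of 16 tested genes for carriers, uncoupling and calcium uptake and 3 of 25 of the tricarboxylic acid cycle list passed at rest, beside 19.3% of all tested genes, and 3 and 2 passed after treatment, beside 13.5%. Among them Mcu, the pore of the mitochondrial calcium uniporter, was higher in slices labelled Cre at 54.9, 51.6 and 56.1 CPM with vehicle, against 38.6, 43.1 and 42.6 CPM without Cre. The differences were 0.38 (adjusted p = 0.00174, limma) at rest and 0.40 (0.00133) after treatment, with no overlap between libraries. Micu2, a regulator of the uniporter, was lower at rest, at -0.30 (0.00541), while its call after treatment was lost in 16 of 25 alternatives. Pdp1, the phosphatase that activates pyruvate dehydrogenase, was higher by 0.39 (0.00682) and 0.43 (0.00414). Excitatory neuron markers were higher in the same libraries (4 of 6 at rest and 3 of 6 after treatment), and their part in these differences was not tested.

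With treatment 0 of 25 genes of the tricarboxylic acid cycle and 0 of 16 carrier genes passed in either genotype (limma). Of 23 tested genes of mitochondrial dynamics and quality control 2 fell in both, beside 9.34% and 10.3% of tested genes called lower: Mief1 (-0.49 and -0.42, adjusted p = 5.80e-04 and 0.00175, without and with Cre) and Mief2 (-0.45 and -0.51, adjusted p = 6.26e-04 and 2.42e-04), which recruit the fission protein Drp1. Among regulators, the estrogen-related receptor gene Esrrb was higher in vehicle slices labelled Cre (0.49, 0.00545) and Esrrg was lower in treated ones (-0.73, 0.0113), a call lost in 2 of 25 alternatives. Nrip1 was lower in treated slices labelled Cre as well (-0.52, 9.49e-04).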
